A study of Homo sapiens with 8 samples.

Results

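The SOX, PAX, TBX, GATA and LHX families of transcription factors were examined in FAIRE-seq peak lists of U2OS cells, a human osteosarcoma line. Members were the protein-coding genes of GENCODE 44 on chromosomes 1 to 22 and X whose symbol is one of the 5 family names followed by a number and at most a letter. This gave 55 of 19970 protein-coding genes, with 19 SOX, 9 PAX, 13 TBX, 6 GATA and 8 LHX genes. FAIRE-seq sequences DNA that is not held by nucleosomes after formaldehyde fixation, and its peaks mark open chromatin.

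In all, 8 libraries were made from 4 U2OS clones. Clones WT_4 and WT_5 were wild type (WT), and KO_C5 and KO_D2 carried a knockout of ZBTB48 (KO), a zinc finger protein that binds telomeric repeats and some promoters. Every clone was profiled both untreated and exposed to interferon gamma (IFNγ) at 250 U/ml. Per the labels the exposure lasted 24 hours, but the text of the study names a longer one, so the duration is uncertain. Each genotype rests on 2 clones and each of the 4 groups on 2 libraries, so clonal differences and genotype cannot be fully told apart. The lists held 16730 to 37533 peaks per library. They hold no read totals, and fragments at the summits of member promoter peaks numbered 5 to 154.

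Factors of these families choose cell fates in the embryo. SOX proteins bind DNA through an HMG box, PAX proteins through a paired domain, TBX proteins through a T-box, GATA proteins through zinc fingers and LHX proteins through a homeodomain next to LIM domains. Most are active in few tissues, and their promoters are often rich in CpG dinucleotides and held silent by Polycomb complexes elsewhere. In the skeletal lineage, SOX9 with SOX5 and SOX6 directs cartilage formation, and several TBX genes pattern the limb.

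The label of the cells was checked on marker genes. Of 8 mesenchymal and osteoblast markers, RUNX2, VIM, COL1A1 and MSX2 had a promoter peak in all 8 libraries. Their percentiles were 2.57 to 40.4 for RUNX2, 57.8 to 91.4 for VIM, 51.2 to 86.4 for COL1A1 and 85.01 to 90.2 for MSX2. PRRX1 had a peak in 6 libraries, at 19.4 to 54.3, and SPARC in 5, at 3.96 to 47.1. TWIST1 had one in 1 library, at 6.93, and COL1A2 in 0. The endothelial genes CDH5 and PECAM1 and the neural genes NEUROD1 and ELAVL3 had none in any library. Of the blood markers, SPI1 had a peak in 1 library and CD79A and PTPRC in 0. Of the 3 epithelial genes, EPCAM had one in all 8, at percentile 11.4 to 57.4. CDH1 and ESRP1 had one in 2 each, at 13.3 to 17.5 and 19.5 to 28.8. The range of RUNX2 was lower at both ends than that of EPCAM. The promoter of ZBTB48 itself kept a peak in every library, at percentile 83.7 to 95.3 in WT and 64.0 to 90.1 in KO, which is no check of the knockout because an edited gene can keep an open promoter. The library of untreated WT_4 stood apart by wider peaks, with a median width of 476 bp against 363 to 417 bp in the other lists.

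A promoter peak was a peak that came within 1000 bp of any annotated transcription start site (TSS) of the gene. Its strength is given as the percentile of its −log10 p among all peaks of the same list, where 100 is the strongest. Some sequences are shown first, so that the CpG content of open and closed promoters can be read beside the peaks. The 2 open ones span 300 bases about the summit (hg38, plus strand) in the library where the peak ranked highest. They are SOX12, which ranked high among the members open in every library, and LHX4, which ranked low. The closed ones span the 250 bases before the RefSeq start (GRCh38.p14, plus strand) of GATA1, a red blood cell factor, and LHX2, a factor of forebrain, eye and limb. CpG dinucleotides are in capitals.
SOX12, chr20:325238-325537: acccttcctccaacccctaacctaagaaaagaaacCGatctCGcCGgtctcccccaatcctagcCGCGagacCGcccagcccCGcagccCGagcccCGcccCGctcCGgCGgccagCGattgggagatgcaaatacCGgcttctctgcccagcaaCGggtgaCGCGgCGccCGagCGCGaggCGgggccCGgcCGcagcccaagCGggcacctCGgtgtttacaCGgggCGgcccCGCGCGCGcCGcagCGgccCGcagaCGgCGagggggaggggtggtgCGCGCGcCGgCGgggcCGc
LHX4, chr1:180229597-180229896: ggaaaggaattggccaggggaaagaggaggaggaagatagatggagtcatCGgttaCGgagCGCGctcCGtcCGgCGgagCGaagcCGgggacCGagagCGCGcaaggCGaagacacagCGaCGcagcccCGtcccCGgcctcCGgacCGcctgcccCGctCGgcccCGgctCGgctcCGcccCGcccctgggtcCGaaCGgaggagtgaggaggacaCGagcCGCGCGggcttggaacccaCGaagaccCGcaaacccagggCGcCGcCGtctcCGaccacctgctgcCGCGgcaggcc
GATA1, chrX:48786340-48786589: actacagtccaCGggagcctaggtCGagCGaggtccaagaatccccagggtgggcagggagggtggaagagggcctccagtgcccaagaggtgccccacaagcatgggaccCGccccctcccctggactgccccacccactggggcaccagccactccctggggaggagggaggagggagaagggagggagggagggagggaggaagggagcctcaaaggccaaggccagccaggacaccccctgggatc
LHX2, chr9:124011518-124011767: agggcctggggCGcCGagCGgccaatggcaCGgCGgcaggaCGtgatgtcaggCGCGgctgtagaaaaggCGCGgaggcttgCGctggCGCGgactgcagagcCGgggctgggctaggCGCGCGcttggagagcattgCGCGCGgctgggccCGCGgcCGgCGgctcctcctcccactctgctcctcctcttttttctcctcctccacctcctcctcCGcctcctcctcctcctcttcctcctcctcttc

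These stretches hold 43 CpG in SOX12, 39 in LHX4, 4 in GATA1 and 25 in LHX2. The weakly open LHX4 thus comes close to SOX12 in CpG, and the closed LHX2 carries far more than the closed GATA1. The SOX12 stretch also holds 1 copy of the hexamer TTAGGG, searched on both strands, which is the telomeric repeat that ZBTB48 binds. Among the RefSeq promoters, 250 bases before to 50 after the start, the hexamer was in 4 of the 38 members matched by symbol (PAX8, LHX3, PAX2 and GATA6; 10.5%) and in 8.69% of 15316 matched coding genes. The 17 members not matched were GATA4, GATA5, LHX1, LHX5, PAX1, SOX7, SOX8, SOX9, SOX10, SOX11, SOX14, SOX15, SOX17, SOX18, TBX2, TBX3 and TBX15.

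The first question was which of these promoters are open in osteosarcoma cells. A promoter peak was present in all 8 libraries for 15 members (27.3%), against 52.1% of all coding genes. It was present in 1 to 7 libraries for 30 members (54.5%), against 21.7% of all coding genes, and in none for 10 members (18.2%), against 26.2%. The members were thus mostly in between, with a peak that some libraries listed and others did not.

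The 15 members with a peak throughout were SOX12, TBX6, TBX3, TBX18, SOX6, TBX2, SOX2, SOX9, PAX8, GATA4, TBX15, PAX7, SOX17, LHX4 and PAX2, in order of mean percentile from 86.9 to 31.1. By family these were 5 SOX, 3 PAX, 5 TBX, 1 GATA and 1 LHX genes. A peak in 7 libraries was found for LHX6, SOX5, SOX13, LHX9 and PAX5, in 6 for TBX21, LHX1, SOX21 and SOX8, and in 5 for GATA5 and SOX4. TBX5, GATA3, GATA2, PAX9 and GATA6 had one in 4 libraries, LHX8, SOX18, TBX4, TBX1, PAX1 and TBX10 in 3, and LHX3 in 2. SOX1, SOX7, SOX10, SOX14, LHX5, PAX6 and TBX22 had one in 1 library, which for each of these 7 was untreated WT_4 or IFNγ-treated WT_5. The 10 members closed in every library were SOX3, SOX11, SOX15, SOX30, PAX3, PAX4, TBX19, TBX20, GATA1 and LHX2.

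**Figure D1:**
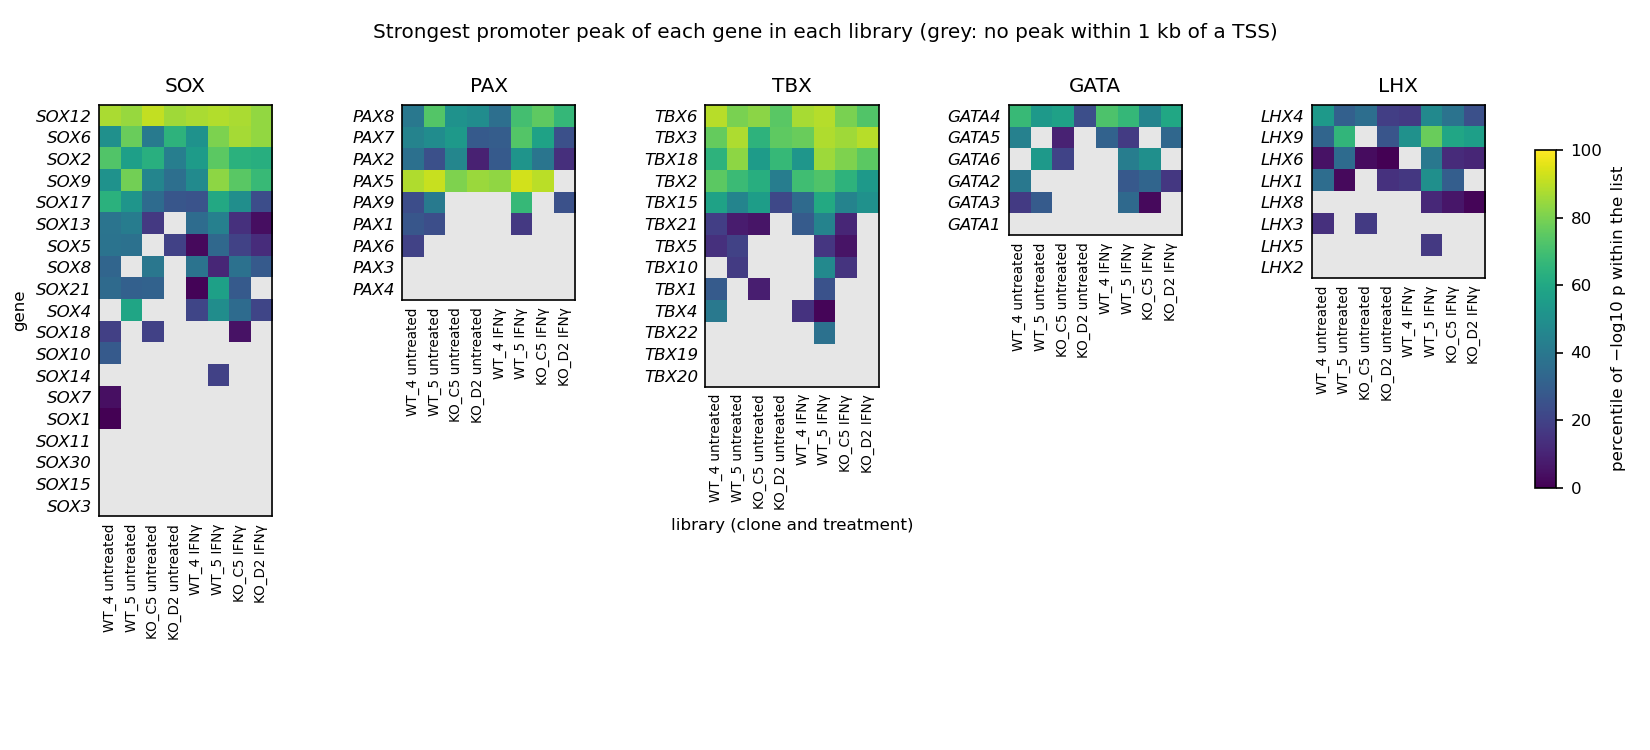
Each row is a member gene, grouped by family and ordered by the number of libraries with a promoter peak, and each column a library. Colour gives the percentile of −log10 p of the strongest promoter peak within its list, and grey marks no peak; SOX12, TBX6 and TBX3 stay bright in all 8 libraries, and 10 genes are grey throughout.

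The members were also read by known role. Of 15 genes of skeleton and limb, 6 were open in all 8 libraries (SOX6, SOX9, TBX2, TBX3, TBX15 and TBX18), 7 in some and 2 in none (SOX11 and LHX2). Of 19 neural genes, 4 were open in all (SOX2, PAX2, PAX7 and LHX4), 12 in some and 3 in none (SOX3, PAX3 and LHX2). Of 5 blood and lymphoid genes, 0 were open in all, 4 in some (GATA2, GATA3, PAX5 and TBX21) and 1 in none (GATA1). Of 9 genes of endoderm, heart and vessel, 2 were open in all (GATA4 and SOX17), 6 in some and 1 in none (TBX20). The 8 T-box and LIM homeobox relatives with other symbols (TBXT, TBR1, EOMES, MGA, LMX1A, LMX1B, ISL1 and ISL2) had 2 in all, 2 in some and 4 in none.

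Paralogs of 1 subgroup differed in several cases. In SOX group C, SOX12 was open in 8 libraries, SOX4 in 5 and SOX11 in 0. In the pair of pituitary factors LHX3 and LHX4, LHX4 was open in 8 and LHX3 in 2, and in the pair of neural crest and muscle factors PAX3 and PAX7, PAX7 was open in 8 and PAX3 in 0. In the TBX2 subfamily, TBX2 and TBX3 were open in 8, TBX5, a factor of forelimb and heart, in 4, and TBX4, a factor of hindlimb and lung, in 3. SOX15 and SOX30, of groups G and H, were both closed.

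The strongest constant peaks were followed library by library, each time in the order WT_4, WT_5, KO_C5 and KO_D2. SOX12, a group C gene of the developing nervous system and mesenchyme, was at percentile 87.3, 84.4, 91.0 and 85.7 untreated and at 87.3, 88.3, 87.5 and 83.7 with IFNγ. TBX6, which specifies paraxial mesoderm, was at 89.3, 79.9, 82.6 and 74.4 untreated and at 87.0, 88.9, 80.05 and 73.0 with IFNγ. TBX3, a limb and mammary gland factor, was at 76.2, 87.8, 64.6 and 75.1 untreated and at 77.3, 88.2, 85.9 and 89.3 with IFNγ. SOX12 thus varied by few percentile points over all libraries, whereas TBX3 was at its lowest in untreated KO_C5 and at its highest in IFNγ-treated KO_D2.

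TBX18, a factor of the heart's pacemaker and of ureter mesenchyme, was at 64.6, 83.1, 55.01 and 67.0 untreated and at 52.4, 85.2, 80.7 and 74.6 with IFNγ. SOX6, the cartilage factor, was at 50.1, 77.3, 41.3 and 64.5 untreated and at 50.9, 80.2, 86.4 and 83.7 with IFNγ. TBX2, a repressor of the limb and heart, was at 74.8, 68.1, 62.8 and 42.5 untreated and at 69.3, 72.5, 64.7 and 53.7 with IFNγ. The clones of WT differed from each other in TBX18 and SOX6, which were lower in both WT_4 libraries than in both WT_5 libraries. The KO values reached from 55.01 to 80.7 in TBX18 and from 41.3 to 86.4 in SOX6. In SOX6 the untreated KO_C5 value is that of another peak, chr11:16606855-16607304, near a different start of the gene, while the site of the other 7 libraries was at percentile 34.6 there.

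The 4 weakest constant peaks also varied by clone. PAX7, the factor of muscle stem cells, was at 44.8, 48.7, 54.0 and 28.4 untreated and at 29.4, 73.1, 57.7 and 24.2 with IFNγ. SOX17, an endoderm and artery factor, was at 63.9, 52.1, 35.1 and 26.7 untreated and at 25.4, 60.2, 49.5 and 23.7 with IFNγ. LHX4, the pituitary factor shown above, was at 54.2, 30.6, 36.1 and 18.4 untreated and at 17.1, 47.6, 38.0 and 24.3 with IFNγ. For all 3 genes WT_5 was above WT_4 with IFNγ, and for SOX17 and LHX4 WT_4 was above WT_5 untreated. PAX2, a kidney and eye factor, was at 37.1, 24.3, 45.8 and 9.09 untreated and at 28.3, 51.7, 38.8 and 13.5 with IFNγ, with both KO_D2 libraries the lowest.

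The position of these peaks was read on the canonical transcript of each gene. For 10 of the 15 constant members the summit of the strongest peak lay upstream of that transcript, 2 of these inside a longer form of the gene, and for PAX2, PAX7 and TBX15 it lay in the 5' UTR in exon 1. The SOX12 peak spanned chr20:325188-325916 with its summit 164 bp upstream and the LHX4 peak chr1:180229355-180230205 with its summit 517 bp upstream. PAX8 and TBX2 were exceptions. The PAX8 summit lay in intron 7 of the canonical transcript at chr2:113240909-113241295. The antisense gene PAX8-AS1 starts within 1000 bp of a PAX8 start, but was not shown to start near this peak. The TBX2 summit lay 9818 bp from the canonical start, beyond its transcript, at chr17:61409216-61409838, and 919 to 978 bp from the nearest start of another TBX2 transcript.

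Some open promoters cannot be given to a member alone. The SOX6 peak, at chr11:16738351-16738766, lay within 1000 bp of a start of the coding gene C11orf58 as well and 382008 bp from the canonical SOX6 start. SOX8 shared its window with LMF1, SOX10 with POLR2F and SOX18 with TCEA2. PAX5, which commits B cells, had the highest mean percentile of the partly open members in 7 libraries, at 88.1, 91.5, 80.6 and 84.9 untreated and at 83.3, 93.2 and 89.8 in WT_4, WT_5 and KO_C5 with IFNγ. Its summits lay 1167 to 1206 bp from the nearest PAX5 start, so that only the edge of the peak was inside the window, and the peak was absent from the count in IFNγ-treated KO_D2, where it began beyond 1000 bp. With the canonical start alone, 14 members had fewer libraries with a peak, and 12 members in place of 15 had one in all 8. PAX8, SOX6, PAX5, GATA2, LHX3 and TBX22 then had a peak in 0 libraries. LHX9, LHX1, GATA3 and TBX1 had one in 1, TBX4 in 2 and TBX2, SOX5 and PAX9 in 3.

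Member promoter peaks were weaker and narrower than those of coding genes at large. The median percentile over members with a peak was 32.5 to 50.4 in the 8 libraries, against 65.6 to 81.1 over all coding genes with a peak. The median fold enrichment, a ratio of the fragments at the summit to the local background, was 7.21 to 10.8 against 17.0 to 33.2. Median widths were 371 to 491 bp against 452 to 643 bp. The lower rank was seen in each library and in both genotypes. Fragments at the summit had a median of 17.5 to 30 over member peaks in a library, so that many of these calls rest on few fragments.

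SOX9, the master regulator of cartilage, had a peak whose width and summit differed between libraries. Its width was 1189, 349, 516 and 559 bp untreated and 1210, 2091, 314 and 355 bp with IFNγ. The summit lay 55 to 76 bp upstream of a start in 6 libraries and 812 and 823 bp downstream in the 2 libraries of WT_4. SOX12 had peaks of 729 to 1705 bp, and a width above 1000 bp was found for 3.81% ± 0.972 of member promoter peaks of KO clones and 10.2% ± 6.69 of those of WT clones (SD, n = 2), against 7.23% ± 1.85 and 14.8% ± 0.289 over coding genes.

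The median CpG content of open and closed members lay closer together than that of open and closed coding genes. The CpG observed over expected ratio, which is 1 when CpG is as frequent as the C and G content predicts, was taken over 500 bp either side of the canonical start. Its median was 0.787 for the 15 members open in all libraries, 0.732 for the 30 open in some and 0.672 for the 10 closed ones. Open here counts a peak at any start, so the ratio and the peak can belong to different starts of a gene. Over all coding genes the medians were 0.807, 0.684 and 0.261. Of the closed members, SOX11 (0.881), LHX2 (0.837), TBX20 (0.807) and SOX3 (0.781) had CpG-rich promoters, and PAX4 (0.0616), GATA1 (0.179) and TBX19 (0.291) CpG-poor ones.

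At a ratio of at least 0.6, 13 of 41 members (31.7%) had a peak in all 8 libraries, against 72.3% of 13248 coding genes, and 6 of 41 (14.6%) had none, against 6.32%. The 6 CpG-rich closed members were SOX3, SOX11, SOX30, PAX3, TBX20 and LHX2. TBX1, a factor of the pharyngeal arches, had the highest ratio of all members, 1.07. It had a peak in 3 libraries at any of its starts, but in 1 at its canonical start. SOX6 was the converse, with a ratio of 0.0771 at its canonical start and a peak in all 8 libraries at its distant start.

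**Figure D2:**
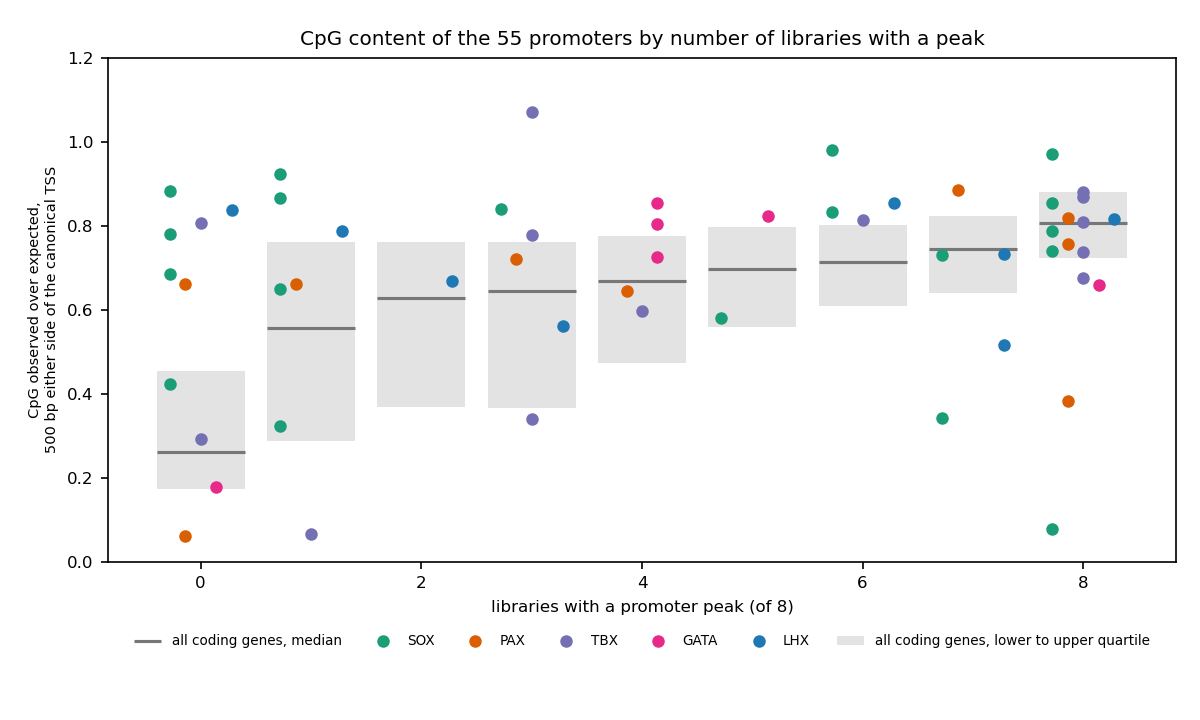
Each point is 1 of the 55 members, placed by the number of libraries with a promoter peak and by the CpG observed over expected ratio within 500 bp of its canonical start; grey boxes span the quartiles and lines the medians of all coding genes. Members with 0 libraries reach from 0.0616 to 0.881, while the median of all such coding genes is 0.261.

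The effect of the genotype on the number of open members was asked next. Untreated, 38 members had a promoter peak in WT_4, 30 in WT_5, 26 in KO_C5 and 20 in KO_D2. With IFNγ there were 26, 39, 32 and 25. Averaged by clone, WT had 33.25 ± 1.77 and KO had 25.75 ± 4.60 such members (SD, n = 2 clones per genotype), a difference of 7.50 members that exceeds both spreads and was 4.50 without untreated WT_4. No test was run on this count, because the members were chosen.

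The length of the lists moved with it. Lists averaged 26932 ± 9359 peaks over WT clones against 22042 ± 1858 over KO clones (SD, n = 2). When all lists were reduced to the 16730 strongest peaks, members with a peak numbered 29, 17, 22 and 20 untreated and 24, 17, 16 and 13 with IFNγ. The clone means were then 21.75 ± 6.72 in WT and 17.75 ± 1.77 in KO, a difference of 4 members within the spread of the WT clones. Over all coding genes, 65.4% ± 4.02 had a promoter peak in WT and 61.6% ± 0.726 in KO in the deposited lists. WT_4 carried the WT value at equal length, since its lists gave 29 and 24 members and those of WT_5 17 and 17.

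IFNγ gave no separation of counts. Treated libraries had 30.5 ± 6.45 and untreated libraries 28.5 ± 7.55 members with a peak (SD, n = 4 each), a difference of 2 that lies within the spread. At equal list length the difference was −4.5, with 17.5 ± 4.65 against 22 ± 5.10. Within clones, WT_4 went from 38 to 26 members with IFNγ, WT_5 from 30 to 39, KO_C5 from 26 to 32 and KO_D2 from 20 to 25, so the direction was shared by 3 of 4 clones and not by WT_4.

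**Figure D3:**
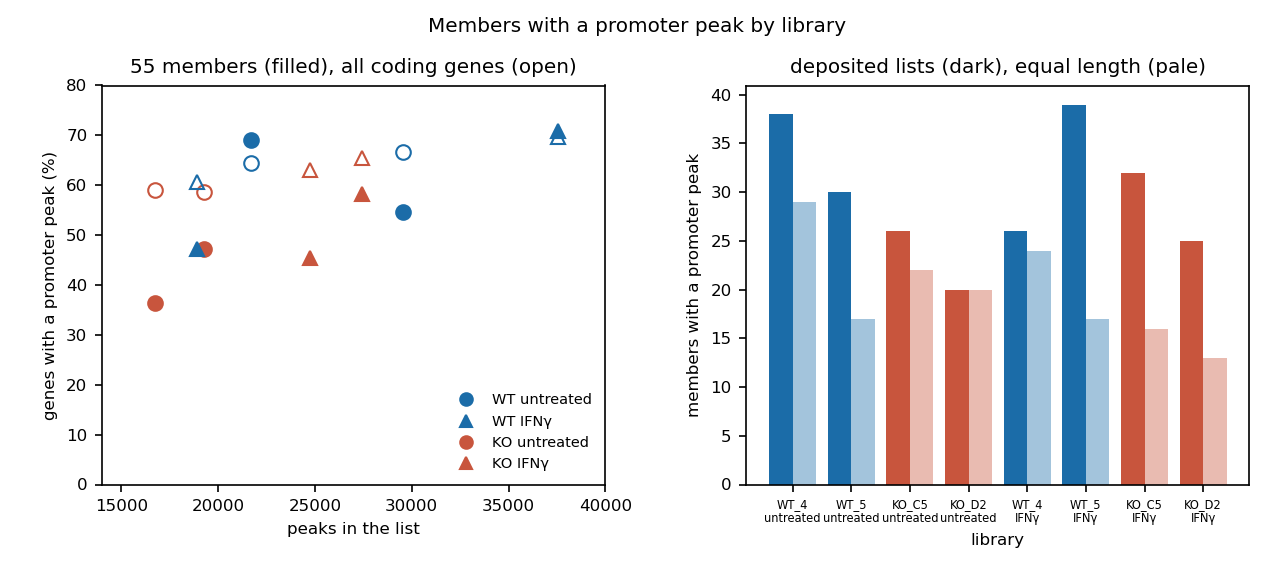
Left, the percentage of the 55 members (filled) and of all coding genes (open) with a promoter peak against the number of peaks in the list, by genotype and treatment; right, members with a promoter peak per library in the deposited lists (dark) and in lists of equal length (pale). Untreated WT_4 has 38 members and IFNγ-treated WT_5 39, and at equal length the libraries range from 13 to 29.

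No member opened or closed completely by genotype or treatment. A promoter peak in all 4 WT and no KO library was found for 0 members (0.225% of coding genes), the reverse for 0 members (0% of coding genes), a peak in all 4 IFNγ and no untreated library for 0 members (0.02%) and the reverse for 0 members (0%). With a difference of at least 3 of 4 libraries, TBX4 and PAX1 had more WT than KO libraries (1.23% of coding genes) and 0 members had more KO than WT libraries (0.00501%). LHX8 and SOX4 had more IFNγ than untreated libraries (0.441%), and 0 members the reverse (0.0451%). Each of the 4 named genes had no peak in 3 or more libraries.

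TBX4 had a peak in untreated WT_4 at percentile 40.4, in IFNγ-treated WT_4 at 14.8 and in IFNγ-treated WT_5 at 1.19, with 22, 13 and 8 fragments at the summit. The WT_5 peak of TBX4, chr17:61456159-61456415, lay near another start than the WT_4 peaks, which overlapped at chr17:61451533-61452876. The site of the WT_4 peaks thus had a peak in WT_4 alone. PAX1, a factor of the vertebral column, had one in untreated WT_4 at 26.7, in untreated WT_5 at 23.9 and in IFNγ-treated WT_5 at 16.4, with 14, 16 and 11 fragments. Neither had a peak in any of the 4 KO libraries, and each lacked one in 1 WT library. In lists of equal length TBX4 kept 2 libraries and PAX1 1.

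LHX8, a factor of forebrain neurons and oocytes, had a peak with IFNγ in WT_5 at percentile 11.4, in KO_C5 at 5.98 and in KO_D2 at 1.44, with 8, 10 and 10 fragments. It had none untreated and none at equal list length or within 500 bp of a start. SOX4, a group C gene of bone and lymphoid progenitors, had a peak with IFNγ in all 4 clones, at 20.8, 49.1, 35.002 and 20.9, and untreated in WT_5 alone at 58.7. In SOX4 the untreated WT_5 peak was thus the strongest of the 5, and 2 libraries kept a peak at equal length.

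Peak strength was then compared for the 15 constant members, as part of a fit over all 10395 coding genes with a peak in all 8 libraries. Percentiles of TBX2 were higher in each WT library (68.1 to 74.8) than in each KO library (42.5 to 64.7), the one member of 15 whose genotypes did not overlap, against 6.77% of the genes tested. No member had all KO above all WT values (0.298% of genes), all IFNγ above all untreated values (0.895%) or the reverse (0.0673%).

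Between genotypes, limma called 0 members and 0 of all genes (0%) at an adjusted p of 0.05. At an unadjusted p of 0.05, 430 of 10395 genes and 1 member passed. That member was GATA4, an endoderm and heart factor, which was 18.7 ± 5.95 percentile points lower in KO (SE, limma, adjusted p = 1.00). GATA4 was at 67.5, 54.1, 57.1 and 23.9 untreated and at 72.1, 66.7, 45.1 and 59.6 with IFNγ, and the genotypes overlapped. TBX2 was 15.2 ± 6.72 points lower in KO (SE, limma, adjusted p = 1.00). Over the 15 members the median difference of KO from WT was −7.94 points with 12 lower, against −3.50 over all genes tested. With lists of equal length these medians were 1.2 over 11 members, 6 of them higher, and −0.26, so the direction over the members did not hold.

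For IFNγ, limma called 0 members and 0 genes (0%), and 243 genes and 0 members had an unadjusted p under 0.05. With the clone as a block these were 703 genes and 0 members, again with 0 calls. The median difference was 4.03 points over the 15 members and 2.25 over all genes tested. With lists of equal length it turned to −1.83 over 11 members and −1.46 over all genes, and without untreated KO_D2 it was −0.71 over 16 members. By clone, IFNγ percentiles were higher for 3 of 15 members in WT_4 (32.4% of all genes tested), 14 in WT_5 (77.6%), 10 in KO_C5 (65.1%) and 11 in KO_D2 (82.3%). WT_4 thus differed from the other clones among the members as it did over all genes.

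The difference between genotypes in the IFNγ response was tested on the change within each clone. limma called 0 members and 0 genes (0%), and 1013 genes and 4 members had an unadjusted p under 0.05. The 4 members were SOX9, PAX8, TBX3 and SOX6, each with a larger percentile change in KO than in WT. In the same fit on log2 fold enrichment, 777 genes and 0 members had an unadjusted p under 0.05. There the change was larger in KO for 7 of the 15 members and smaller for 8, with a median of −0.053. The values in that fit carried a shift of level between libraries and are not the log2 of the deposited fold. SOX9 was at 50.8, 78.8, 45.6 and 36.7 untreated and at 47.7, 83.1, 74.4 and 67.3 with IFNγ, a difference of 29.1 ± 4.49 points between the changes (SE, limma, adjusted p = 0.463). The IFNγ change of SOX9 was 28.8 points in KO_C5, 30.6 in KO_D2, 4.28 in WT_5 and −3.13 in WT_4.

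PAX8, a thyroid and kidney factor, was at 39.9, 73.4, 50.9 and 48.7 untreated and at 36.4, 70.1, 75.2 and 66.6 with IFNγ, a difference of 24.5 ± 4.23 points (SE, limma, adjusted p = 0.463). TBX3 differed by 17.0 ± 4.37 points (SE, limma, adjusted p = 0.463) and SOX6 by 30.3 ± 10.3 points (SE, limma, adjusted p = 0.510). Both KO clones were higher with IFNγ in each of the 4 genes, and none of the 4 passed the adjusted threshold. The lists were longer with IFNγ in both KO clones, at 27457 against 19255 peaks in KO_C5 and 24727 against 16730 in KO_D2, and in WT_5 at 37533 against 29567, but shorter in WT_4 at 18913 against 21715. With lists of equal length SOX9 differed by 15.7, PAX8 by 15.8, TBX3 by 13.2 and SOX6 by 25.8 points. The SOX6 difference of 30.3 points sets an untreated KO_C5 peak at another start against the shared site in the other libraries. The median over the 15 members was 12.5 points, against 5.20 over all genes tested, and turned to −9.36 over 11 members and −1.11 over all genes with lists of equal length.

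**Figure D4:**
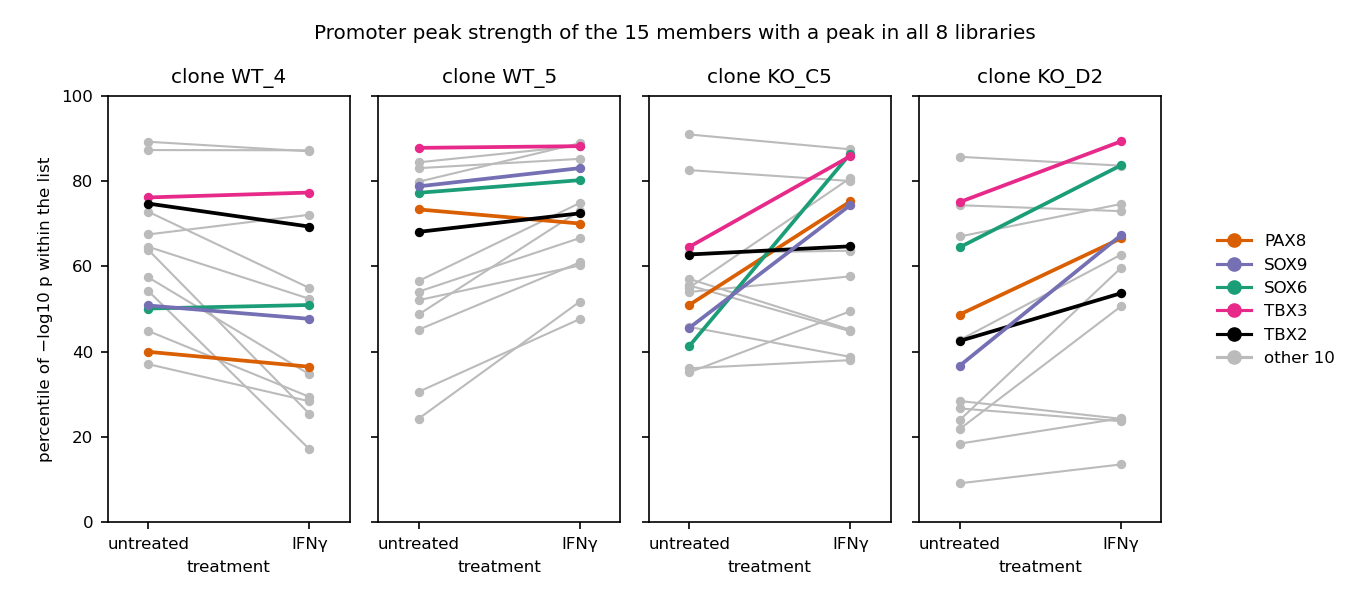
Each line joins the untreated and the IFNγ percentile of 1 of the 15 constant members in 1 clone. SOX9, PAX8, SOX6 and TBX3 lie higher with IFNγ in KO_C5 and KO_D2 and near their untreated level in WT_4 and WT_5, and TBX2 is lower in the KO clones than in the WT clones.

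Beyond promoters, peaks in the gene body at least 1000 bp from any start of the member were counted. Untreated, members held 36 such peaks in WT_4, 17 in WT_5, 9 in KO_C5 and 6 in KO_D2, and with IFNγ 11, 37, 24 and 18. The clone means were 25.25 ± 2.47 in WT and 14.25 ± 3.18 in KO (SD, n = 2), a difference of 11 peaks. It was 1 peak in lists of equal length, 4.75 without untreated WT_4 and 17.25 without IFNγ-treated WT_4. Treated libraries had 22.5 ± 11.03 and untreated libraries 17 ± 13.5 (SD, n = 4), which overlapped. Over all coding genes such peaks averaged 6530 ± 3603 over WT clones and 4569 ± 663 over KO clones (SD, n = 2). They averaged 6584 ± 3098 over treated and 4515 ± 2089 over untreated libraries (SD, n = 4). The means of coding genes thus lay the same way as those of members, within the spread of the WT clones and of the libraries.

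Joined over libraries, these peaks made 76 regions in 36 members. Only 3 regions (3.95%) had a peak in all 8 libraries, against 6.55% of 17724 regions of coding genes, and 43 (56.6%) had one in 1 library, against 52.8%. By the middle of the region on the canonical transcript, 38 lay in introns, 17 in coding exons, 8 in 3' UTRs, 12 upstream of that transcript inside the gene and 1 downstream.

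The 3 constant regions lay in SOX12, SOX11 and PAX3. The SOX12 region, chr20:327084-327701, lay in the 3' UTR of its single exon at percentile 82.5 to 90.2, close to the rank of its promoter peak. The SOX11 region, chr2:5695772-5697459, also lay in the 3' UTR of a single exon and within 1000 bp of a start of ENSG00000242540, with its strongest peak per library at percentile 39.96 to 62.5 and a second peak in 2 libraries reaching down to 22.96, and the PAX3 region, chr2:222290925-222291435, in intron 4, at percentile 14.03 to 56.1. SOX11 and PAX3 had no promoter peak in any library, so each had a constant peak within the gene and none at its starts.

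The members with the most gene-body peaks over the 8 libraries were PAX2 with 14, and LHX5, SOX6, SOX11 and SOX13 with 11 each. PAX2 held 3, 2, 1 and 0 untreated and 3, 3, 1 and 1 with IFNγ, and SOX13 held 0, 1, 0 and 0 untreated and 0, 3, 4 and 3 with IFNγ. LHX5 held 2, 1, 1 and 1 untreated and 1, 2, 2 and 1 with IFNγ, and SOX6 2, 1, 1 and 1 untreated and 0, 2, 3 and 1 with IFNγ. SOX13 thus had 10 of its 11 peaks with IFNγ, though 0 in IFNγ-treated WT_4, and PAX2 had 11 of its 14 in WT. The means of such peaks over all coding genes were also higher with IFNγ and in WT.

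A WT-only region was found in 1 member, PAX2 (0.203% of regions of coding genes), and 0 member regions were KO-only (0.0169%), gained with IFNγ (0.124%) or lost with it (0.00564%). The PAX2 region, chr10:100739173-100739891, lay 6050 bp upstream of the canonical start inside the gene. It was at percentile 2.47 in untreated WT_4, 1.47 in untreated WT_5, 1.996 in IFNγ-treated WT_4 and 29.7 in IFNγ-treated WT_5. Of its 4 peaks, 3 were thus among the weakest of their lists.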

How the data were processed

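FAIRE-seq peak lists of 8 U2OS libraries were used, grouped per the labels. The authors trimmed reads, aligned them to GRCh38 with bowtie2 2.2.5, kept those of high mapping quality with samtools 1.14 and called peaks per library with MACS2 2.2.7.1. The submitters' processing notes also name deepTools 3.5.1. The use of input DNA and the handling of duplicates are not given in the sources used here. The deposited fold enrichment is a ratio of summit pileup to local background, and 2 further deposited columns hold −log10 p and −log10 q as MACS2 wrote them, with 1.30 the lowest −log10 q. The deposited score was not used.

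Peaks on chromosomes 1 to 22 and X were assigned to GENCODE 44 starts within 1000 bp by an overlap of 1 bp, and strength was the percentile of −log10 p within the list. For 236 member peaks, summit fragments were worked out from the fold and the −log10 p by the caller's Poisson formula. Peak lists give no read totals, so depth is known only through these fragments. limma 3.58.1 in R 4.3.3 (eBayes, Benjamini-Hochberg over all genes tested) was run on clone means for genotype, on libraries with genotype as a term for IFNγ, and on within-clone changes for their difference. Interval code and limma were tested on simulated data. Clones are the replicates of genotype, and nothing states separate cultures within a clone.

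Untreated and IFNγ libraries of a clone share cells of 1 clone, per the labels. Deviations from group means correlated at 0.641 between the 2 libraries of a WT clone and 0.428 in KO over 10395 genes, so the pairing by clone was used as a block in an alternative fit. Named were all members by number of libraries, the 6 strongest and 4 weakest constant members, those with a pattern or non-overlapping values, those past a threshold and those with most gene-body peaks, with ties. The members and lists were chosen with earlier results of these data known. SOX9, PAX8, GATA4 and PAX5, and the printed sequences, were picked after their values were seen. Alternatives were windows of 500 and 300 bp, canonical starts, summits, stricter limits on −log10 q (3) and on fold (4), equal list lengths, log2 fold values and the omission of libraries. The log2 fold values carried a shift of level between libraries, so they are not the log2 of the deposited fold. A marker gene and a sequence are not reported here.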

Additional observations from a re-analysis of the deposited data

Results flagged for a closer look

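PAX8 was the one member of the 15 with a peak in all libraries whose percentile moved in opposite directions with IFNγ in every clone of the 2 genotypes. The share of all genes tested with this pattern was not counted, so how common it is cannot be told. The IFNγ change of PAX8 was −3.498 points in WT_4 and −3.30 in WT_5 but 24.3 in KO_C5 and 17.8 in KO_D2, which makes a difference of 24.5 points between the genotypes. In the test of that difference over all genes it had an adjusted p of 0.463 by limma, and under the 2 alternatives in which it was also fitted as a percentile it was 15.8 to 24.5 points. In deposited fold enrichment PAX8 rose in WT_5 as well, from 18.1 to 18.4, and fell from 9.38 to 8.79 in WT_4. It rose from 8.54 to 14.6 in KO_C5 and from 9.06 to 9.65 in KO_D2. The opposite directions by genotype are thus those of percentiles and not of fold. Its peak lies in an intron and has no start of the canonical transcript within 1000 bp.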

How the results depend on the processing

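The lists are peak calls without reads, so a gene just under a list's threshold looks closed, and list length moved several counts. Of members closed in all libraries there were 16 with the canonical start alone and 20 with lists of equal length, in place of 10. The excess of members with a promoter peak in WT over KO was 4 with lists of equal length in place of 7.50. The excess of gene-body peaks in WT was 8 at a −log10 q of at least 3, 1 with lists of equal length and 24.25 when peaks near starts were kept, in place of 11. In lists of equal length the IFNγ difference in open members turned from 2 to −4.5, within the spread, and 31 of 55 members had fewer libraries with a peak.

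Leaving out 1 library at a time gave 15 to 17 members open in all and 10 to 14 in none, a WT excess of 4.50 (untreated WT_4) to 10.5 open members and of 4.75 (untreated WT_4) to 17.25 (IFNγ-treated WT_4) gene-body peaks, with 6 without IFNγ-treated WT_5 and 7.25 without untreated KO_C5, and an IFNγ difference of −0.833 to 5.17 members and 0.667 to 11.8 gene-body peaks. WT-only members numbered 0 to 1 and IFNγ-gained members 0 to 1. Without untreated WT_5, TBX4 became WT-only and SOX4 IFNγ-gained, and without IFNγ-treated WT_4, PAX1 and LHX8 did so. The strongest peaks behind the calls of TBX4 and SOX4 did not all lie at the same site of the gene. Without untreated WT_4 the closed members were 14, and without IFNγ-treated WT_5 13. Without both libraries of WT_5, chosen after seeing the data, 15 were open in all and 13 closed, and a window of 300 bp, likewise chosen, gave a WT excess of 6.75.

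limma called 0 genes in each of the 3 tests under all alternatives run, with clone as a replicate block included, which left 0 calls for IFNγ as did the fit without the block. In the fit on log2 fold enrichment the median of the 15 members was 0.21 higher in KO (10 higher), where that of all genes tested was 0.0089. The fitted values carried a shift of level between libraries and are not the log2 of the deposited fold. The deposited fold itself was lower in KO, so the fitted value is not a rise in deposited fold. Library medians of fold averaged 8.78 in KO and 10.1 in WT over members with a peak, and 19.8 and 27.8 over coding genes. At equal list length the median difference in the IFNγ response was −9.36 points over 11 members in place of 12.5.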
